A study of Mus musculus with 12 samples.

Results

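The genes described are 42 genes of the cell cycle, taken by symbol from a fixed list: 16 that act in S phase, when DNA is copied, 23 that act in mitosis, when the chromosomes are separated, and 3 that control the step from G1 into S phase (E2f1, Ccne1 and Ccnd1). All 42 were found among the 34327 genes of the table, and all 42 had a mean of at least 1 TPM, the filter used for testing. They were measured by RNA-seq in bone marrow-derived macrophages (BMDMs), cells grown from the marrow of wild-type C57BL/6J mice in medium conditioned by L929 cells, which supplies the macrophage growth factor. The BMDMs were embedded in floating gels of type I collagen, at 2 mg/ml (low-collagen gels) or 7 mg/ml (high-collagen gels), or kept on tissue culture (TC) plates. In each of these 3 settings they were left untreated or given the type 2 cytokine IL-4 at 20 ng/ml, for 24 hours per the labels, which gives 6 conditions with 2 libraries each. All 12 libraries come from wild-type BMDMs, and no other genotype or agent was used in them.

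A cell that commits to division passes from G1 into S phase when cyclin D and cyclin E kinases release E2F transcription factors from the retinoblastoma protein. E2F then drives genes that load the MCM helicase on DNA, supply nucleotides and build the replication machinery. Genes of G2 and mitosis come on later, through MuvB complexes with B-Myb and FoxM1, and many of their proteins are destroyed as the cell divides. BMDMs divide in response to CSF1, and macrophages in tissue can divide in response to IL-4.

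TPM, the unit of the table, is the abundance of a gene's transcripts corrected for their length and scaled to a common total. The depth of each library is unknown from TPM, and 11543 to 11910 genes reached 1 TPM in each library. Nothing in the labels says whether the 2 libraries of a condition came from separate cultures or animals, so p-values measure only the spread between these libraries. The 9 macrophage markers found were detected in every library and summed to 18372 to 29809 TPM on plates and 32369 to 55803 TPM in gels. Most of that sum was Lyz2 (13223 to 24117 TPM on plates, 25900 to 48901 TPM in gels), and the list did not move one way: Csf1r was higher in gels, while Cd68 was at 2232 and 2282 TPM on untreated plates against 1418 to 1826 TPM in untreated gels, and Cd14 at 729 and 724 TPM against 349 to 472 TPM. The part of these markers in the results was not tested. Markers of other cells were low throughout. The 12 neutrophil and progenitor markers, the progenitors being cells that divide, summed to 14.8 to 20.8 TPM on plates and 12.5 to 34.0 TPM in gels, with Ly6g at 0. This list did not move one way either. Cd34 was at 10.2 and 10.4 TPM on untreated plates against 2.02 to 5.57 TPM in untreated gels. Prtn3 was at 0 to 0.276 TPM on plates against 1.63 to 9.49 TPM in gels. The part of these genes in the results was not tested. The sums were at most 3.01 TPM for fibroblast, 1.53 TPM for lymphocyte and 1.99 TPM for dendritic cell markers. The share of mitochondrial transcripts was 5.22% to 5.86% on plates and 3.30% to 4.16% in gels, and its part in the results was not tested.

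The cell cycle genes were far more abundant on plates than in gels. Together the 42 genes held 0.516% and 0.514% of all TPM in the untreated plate libraries, 0.401% and 0.400% with IL-4 on plates, and between 0.121% and 0.148% in the 8 gel libraries. Untreated plates had the highest mean of the 6 conditions for 41 of the 42 genes, the exception being Cenpa. For 40 genes all 4 plate libraries lay above all 8 gel libraries, against 31.2% of all genes tested. The order of levels was the same for most members: untreated plates, then plates with IL-4, then the 4 gel conditions, whose ranges mostly overlapped. In bulk RNA, fewer cells in cycle and less of these transcripts per cell cannot be told apart. The gels also differed from the plates in culture format and handling, which cannot be told apart from the contact with collagen.

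**Figure D1:**
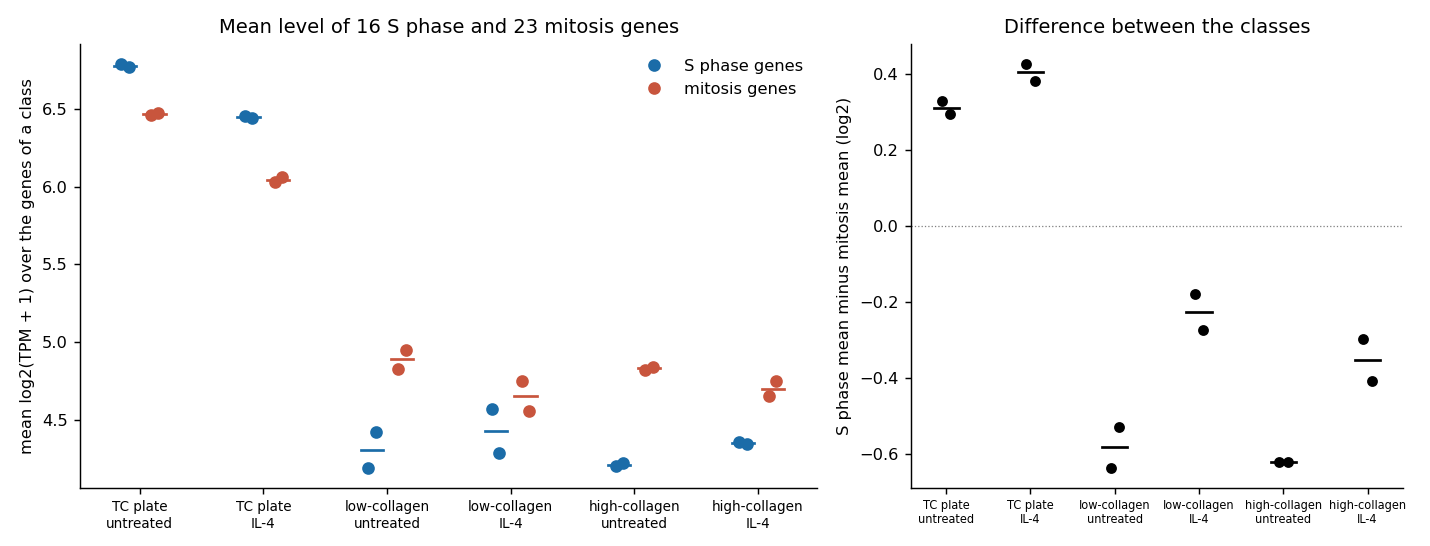
Mean log2(TPM + 1) of the 16 S phase genes and the 23 mitosis genes in each of the 12 libraries (left), and the S phase mean minus the mitosis mean (right); each point is 1 library and each line the mean of 2. S phase genes were above mitosis genes in the 4 plate libraries, by 0.29 to 0.43, and below them in the 8 gel libraries, by 0.18 to 0.63.

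The S phase genes were lower in gels without exception. Against untreated plates, 16 of 16 were called lower in untreated low-collagen gels and 16 of 16 in untreated high-collagen gels, where limma called 44.3% and 45.5% of all genes lower and 72.8% and 73.5% in either direction (adjusted p under 0.2). The median log2 fold change of these genes was −2.33 and −2.47, beside −0.13 and −0.16 over all genes. With IL-4 on both sides, 16 of 16 were again lower in each gel, with medians of −1.95 and −2.01, while 52.2% and 48.1% of all genes were called lower and 75.1% and 74.6% in either direction. Log2 fold changes are on the log2(TPM + 1) scale, which understates the change of genes with low values. Permuting 2 libraries against 2 cannot go under p = 0.33 in an exact test, so each call leans on limma's pooling of the spread over genes. The comparisons of low- and high-collagen gels use the same plate libraries and are not independent of each other.

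Among the 6 subunits of the MCM helicase, which unwinds DNA at the replication fork, Mcm5 changed most. Mcm5 was at 138 and 149 TPM in the untreated TC plate libraries, 112 and 108 TPM with IL-4 on plates, 12.04 and 15.05 TPM in low-collagen gels left untreated, 21.5 and 14.6 TPM with IL-4 in low collagen, 12.4 and 12.99 TPM in high-collagen gels left untreated and 14.8 and 15.9 TPM with IL-4 in high collagen. The plate libraries were at 108 TPM or more and the gel libraries at 21.5 TPM or less, and the log2 fold change between untreated conditions was −3.32 (SE 0.16, adjusted p = 1.7e-07) in low-collagen gels and −3.40 (SE 0.16, adjusted p = 1.3e-07) in high-collagen gels. Mcm2 was at 73.8 and 73.1 TPM on untreated plates and 69.2 and 66.6 TPM on plates with IL-4, against 7.59 and 9.78 TPM (untreated) and 14.2 and 9.18 TPM (IL-4) in low-collagen gels and 8.99 and 8.64 TPM (untreated) and 9.91 and 9.24 TPM (IL-4) in high-collagen gels. Its log2 fold changes were −2.95 and −2.92, with no overlap between plates and gels. Mcm3, Mcm4, Mcm6 and Mcm7 moved less, with log2 fold changes of −2.45 and −2.60, −2.32 and −2.43, −2.35 and −2.50 and −2.07 and −2.05 in low- and high-collagen gels. In low-collagen gels the 6 subunits of this complex thus ranged from 4.31-fold (Mcm7) to 10.6-fold (Mcm5) lower in mean TPM.

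The genes that load the helicase changed less than Mcm5. Cdc6 and Cdt1, which place the helicase on origins, had log2 fold changes of −1.98 and −1.96 and −2.01 and −2.02, and Gins2, a subunit of the active helicase, −2.13 and −2.45. Cdc6 was the S phase gene with the lowest level, at 15.8 to 20.6 TPM on plates and 2.09 to 5.38 TPM in gels. Pcna, the sliding clamp that holds DNA polymerase on its template, was the most abundant of the S phase genes in TPM. Its values were 582 and 578 TPM in the untreated TC plate libraries, 505 and 504 TPM with IL-4 on plates, 96.05 and 117 TPM in low-collagen gels left untreated, 153 and 137 TPM with IL-4 in low collagen, 104 and 99.1 TPM in high-collagen gels left untreated and 132 and 125 TPM with IL-4 in high collagen. Replicates on plates were close to each other, and even the highest gel library, with IL-4 in low collagen, was far under the lowest plate library. The log2 fold changes of Pcna were −2.44 (SE 0.09, adjusted p = 4.1e-08) and −2.51 (SE 0.09, adjusted p = 2.7e-08), and those of Fen1, the nuclease that trims Okazaki fragments, −2.09 and −2.33.

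The enzymes that make nucleotides followed. Rrm2, the subunit of ribonucleotide reductase that limits its activity, was at 151 and 142 TPM on untreated plates and 110.4 and 122 TPM on plates with IL-4, against 12.2 and 16.3 TPM (untreated) and 21.6 and 15.2 TPM (IL-4) in low-collagen gels and 18.6 and 16.8 TPM (untreated) and 15.8 and 14.8 TPM (IL-4) in high-collagen gels. The plate libraries ranged from 110.4 to 151 TPM and the gel libraries from 12.2 to 21.6 TPM, and the log2 fold changes were −3.29 (SE 0.16, adjusted p = 2.4e-07) and −2.98 (SE 0.16, adjusted p = 3.8e-07). Its partner Rrm1, which cells keep at steadier levels, changed by −2.07 and −2.05, and Tk1, thymidine kinase, by −2.25 and −2.30. Tyms, thymidylate synthase, was at 107 and 89.1 TPM on untreated plates and 68.9 and 67.3 TPM on plates with IL-4, against 14.8 and 20.1 TPM (untreated) and 19.7 and 17.4 TPM (IL-4) in low-collagen gels and 11.4 and 15.8 TPM (untreated) and 16.7 and 13.2 TPM (IL-4) in high-collagen gels, with log2 fold changes of −2.43 and −2.77. Uhrf1, which passes DNA methylation to the new strand, had the largest fall of the S phase genes. Uhrf1 was at 113 and 116 TPM in the untreated TC plate libraries, 81.4 and 75.8 TPM with IL-4 on plates, 8.37 and 11.9 TPM in low-collagen gels left untreated, 12.7 and 9.41 TPM with IL-4 in low collagen, 6.97 and 7.41 TPM in high-collagen gels left untreated and 8.82 and 11.9 TPM with IL-4 in high collagen, and its log2 fold change was −3.39 (SE 0.18, adjusted p = 3.7e-07) in low-collagen and −3.81 (SE 0.18, adjusted p = 1.6e-07) in high-collagen gels.

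**Figure D2:**
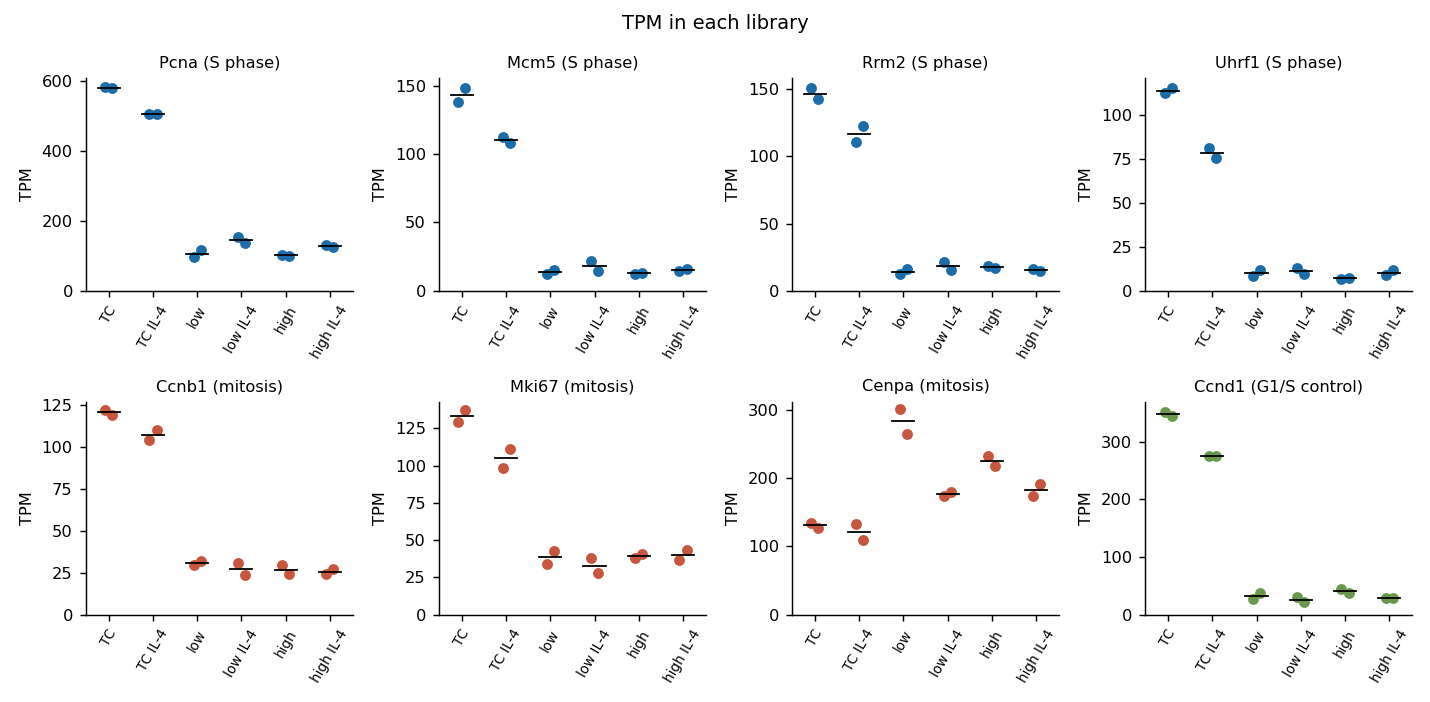
TPM of 8 genes in each library; points are libraries, lines are means of 2 libraries, and the class of each gene stands in its title. Pcna, Mcm5, Rrm2, Uhrf1, Ccnb1, Mki67 and Ccnd1 were highest on untreated plates, lower on plates with IL-4 and lowest in gels, and Cenpa was highest in untreated low-collagen gels.

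Mitosis genes were lower in gels as well, with 1 exception. In untreated low-collagen gels 22 of 23 were called lower and 1 higher, and in untreated high-collagen gels also 22 and 1, with median log2 fold changes of −1.81 and −1.73. With IL-4 on both sides the counts were 22 lower and 1 higher in low-collagen gels and 21 lower and 1 higher in high-collagen gels, with medians of −1.48 and −1.50. In low- and high-collagen gels, 44.3% and 45.5% of all genes were called lower without IL-4, and 52.2% and 48.1% with it. The gene that was higher was Cenpa in all 4 comparisons, where 28.5%, 28% (both untreated), 22.8% and 26.5% (both with IL-4) of all genes were called higher. Cenpf was the gene not called.

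The kinases and cyclins that start mitosis were all lower in gels. Cdk1, the kinase of mitosis, was at 302 and 278 TPM on untreated plates and 221 and 223 TPM on plates with IL-4, against 74.7 and 78.2 TPM (untreated) and 84.96 and 62.7 TPM (IL-4) in low-collagen gels and 90.1 and 86.2 TPM (untreated) and 64.6 and 89.7 TPM (IL-4) in high-collagen gels. Ccnb1, cyclin B1, its partner, was at 122 and 119 TPM in the untreated TC plate libraries, 104 and 110.0 TPM with IL-4 on plates, 29.2 and 31.9 TPM in low-collagen gels left untreated, 30.8 and 23.4 TPM with IL-4 in low collagen, 29.3 and 24.1 TPM in high-collagen gels left untreated and 23.9 and 27.3 TPM with IL-4 in high collagen. For both, no gel library reached a plate library. The log2 fold changes of Cdk1 were −1.91 (SE 0.16, adjusted p = 4.8e-06) in low-collagen and −1.71 (SE 0.16, adjusted p = 9.2e-06) in high-collagen gels, and those of Ccnb1 −1.94 and −2.14. Plk1 and Ccna2 (polo-like kinase and cyclin A2) had the largest falls of the class, −2.15 and −2.21 for Plk1 and −2.07 and −2.24 for Ccna2. Aurka and Aurkb, the Aurora kinases, changed by −1.91 and −1.85 and −2.03 and −1.66, while cyclin B2, Ccnb2, changed less (−0.99 and −1.40).

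Proteins of the checkpoint and of the exit from mitosis came next. The checkpoint kinases Bub1 and Bub1b changed by −1.97 and −1.85 and −1.60 and −1.34. Cdc20, the activator of the anaphase-promoting complex, changed by −1.35 and −1.58 and Ube2c, the ubiquitin-conjugating enzyme that works with it, by −1.40 and −1.63. The motor proteins Kif11, Kif20a and Kif23 changed by −1.91 and −1.84, −1.40 and −1.70 and −1.47 and −1.34. Prc1, Tpx2 and Nusap1, which bundle or nucleate spindle microtubules, changed by −1.91 and −1.97, −1.99 and −2.03 and −1.66 and −1.74. Birc5 (survivin), of the chromosomal passenger complex, changed by −1.81 and −1.94 and Cenpe, a kinetochore motor, by −1.56 and −1.72. All of these were called lower in both gels, untreated and with IL-4.

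Top2a and Mki67, often used as markers of dividing cells, were lower too. Top2a, which untangles DNA before the chromosomes part, was at 277 and 269 TPM on untreated plates and 179.9 and 196 TPM on plates with IL-4, against 66.6 and 76.6 TPM (untreated) and 64.2 and 56.2 TPM (IL-4) in low-collagen gels and 73.9 and 67.2 TPM (untreated) and 61.1 and 51.2 TPM (IL-4) in high-collagen gels, with log2 fold changes of −1.92 (SE 0.11, adjusted p = 4.3e-07) and −1.94 (SE 0.11, adjusted p = 3.8e-07). Mki67 (Ki-67) was at 129 and 137 TPM in the untreated TC plate libraries, 98.3 and 111 TPM with IL-4 on plates, 33.99 and 42.6 TPM in low-collagen gels left untreated, 37.9 and 27.7 TPM with IL-4 in low collagen, 38.2 and 40.7 TPM in high-collagen gels left untreated and 36.8 and 43.3 TPM with IL-4 in high collagen, with log2 fold changes of −1.78 (SE 0.15, adjusted p = 6.4e-06) and −1.73 (SE 0.15, adjusted p = 6.9e-06). In the gels Mki67 remained detected in every library, from 27.7 to 43.3 TPM, and Top2a from 51.2 to 76.6 TPM.

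The 2 genes that departed from the class, Cenpa and Cenpf, both encode centromere proteins, but Cenpe, which encodes another, fell with the class. Cenpa, the histone H3 variant that marks the centromere, was at 134 and 127 TPM in the untreated TC plate libraries, 133 and 109.6 TPM with IL-4 on plates, 302 and 265 TPM in low-collagen gels left untreated, 174 and 179.9 TPM with IL-4 in low collagen, 233 and 219 TPM in high-collagen gels left untreated and 174 and 191 TPM with IL-4 in high collagen. All 8 gel libraries lay above all 4 plate libraries, a pattern seen in 12.6% of all genes tested. Its log2 fold changes were 1.11 (SE 0.10, adjusted p = 8.0e-06) in untreated low-collagen gels, 0.78 (SE 0.10, adjusted p = 7.9e-05) in untreated high-collagen gels, and 0.55 and 0.59 with IL-4. Other genes share 2.61% of the 31-base words of annotated Cenpa RNA, and how its reads were divided was not measured. Cenpf, a large kinetochore protein, was at 18.5 and 16.6 TPM on untreated plates and 10.2 and 11.4 TPM on plates with IL-4, against 9.88 and 11.4 TPM (untreated) and 9.86 and 5.58 TPM (IL-4) in low-collagen gels and 10.9 and 7.71 TPM (untreated) and 12.6 and 12.5 TPM (IL-4) in high-collagen gels. Here plates and gels overlapped, with log2 fold changes of −0.67 and −0.86 without IL-4 and −0.47 in low-collagen gels with IL-4, all called, and 0.21 (SE 0.22, adjusted p = 0.44) in high-collagen gels with IL-4.

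Of the 3 genes that control entry into S phase, Ccnd1 and Ccne1 fell about as far as the S phase genes that changed most. All 3 were called lower in each of the 4 comparisons of gels with plates, where 44.3% to 52.2% of all genes were called lower. Ccnd1, cyclin D1, which growth factors and adhesion induce in G1, was at 352 and 345 TPM in the untreated TC plate libraries, 275 and 276 TPM with IL-4 on plates, 26.95 and 36.7 TPM in low-collagen gels left untreated, 30.1 and 21.7 TPM with IL-4 in low collagen, 44.95 and 36.6 TPM in high-collagen gels left untreated and 28.8 and 28.2 TPM with IL-4 in high collagen. The gel libraries ranged from 21.7 to 44.95 TPM and the plate libraries from 275 to 352 TPM, and the log2 fold changes were −3.43 (SE 0.17, adjusted p = 2.1e-07) and −3.07 (SE 0.17, adjusted p = 3.4e-07). Ccne1, cyclin E1, was at 31.95 and 37.3 TPM on untreated plates and 24.9 and 24.03 TPM on plates with IL-4, against 3.75 and 2.85 TPM (untreated) and 5.33 and 3.86 TPM (IL-4) in low-collagen gels and 4.57 and 3.50 TPM (untreated) and 3.40 and 4.86 TPM (IL-4) in high-collagen gels, with log2 fold changes of −3.05 and −2.83. E2f1 was at 45.6 and 47.02 TPM on untreated plates and 43.2 and 42.4 TPM on plates with IL-4, against 22.7 and 21.4 TPM (untreated) and 22.5 and 18.7 TPM (IL-4) in low-collagen gels and 21.4 and 19.6 TPM (untreated) and 18.7 and 17.4 TPM (IL-4) in high-collagen gels. Its change was the smallest of the 3, −1.04 (SE 0.10, adjusted p = 1.1e-05) and −1.14 (SE 0.10, adjusted p = 5.5e-06), though its plate and gel libraries did not overlap.

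**Figure D3:**
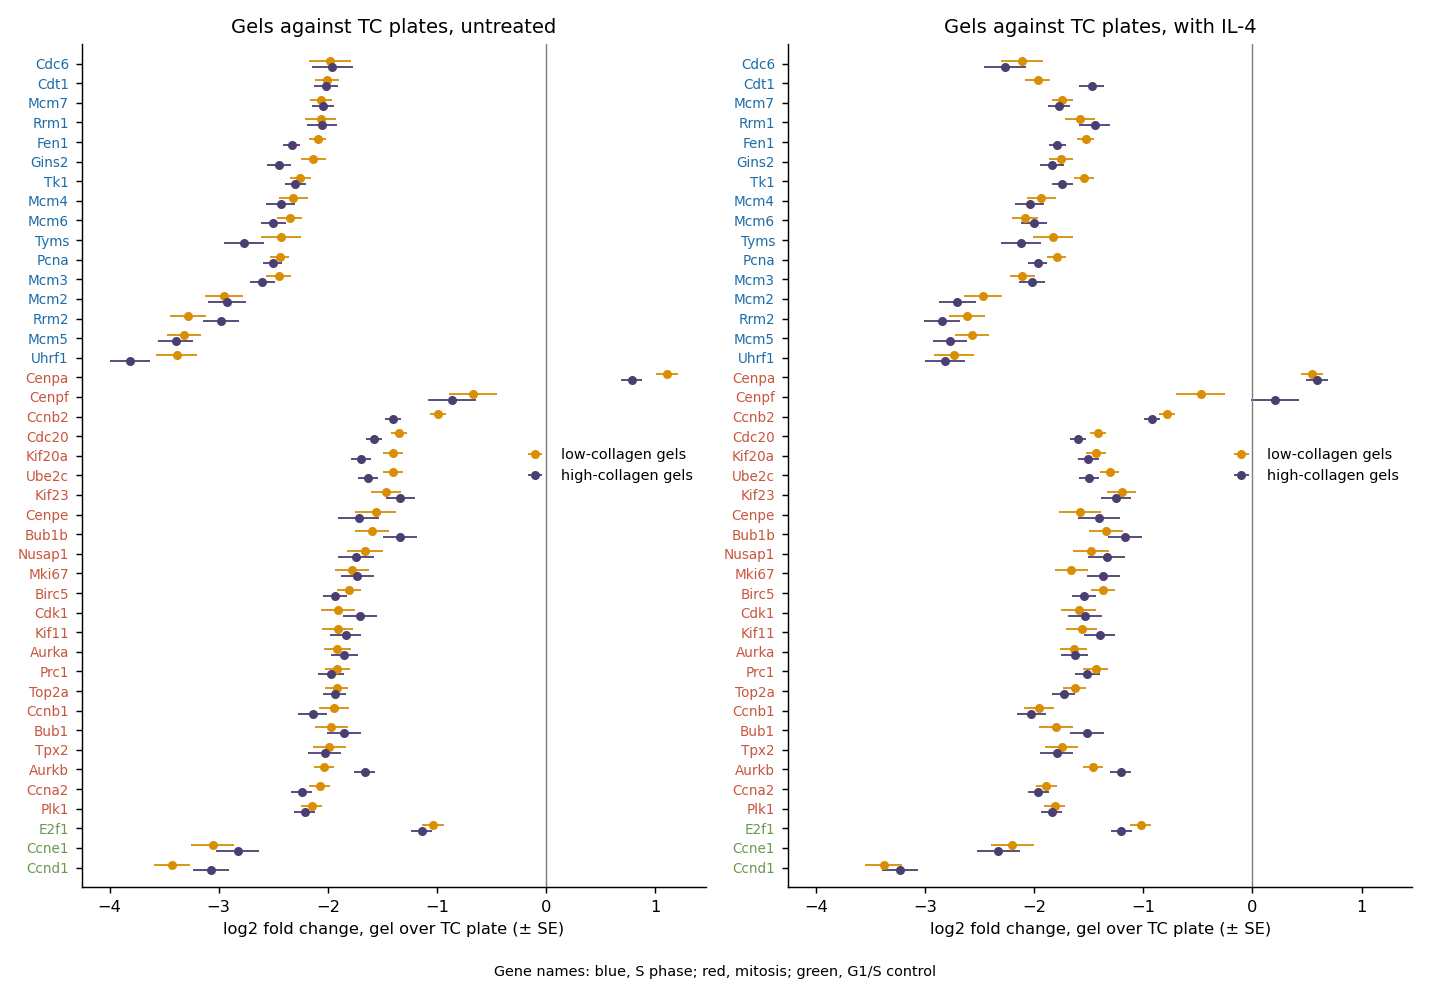
Log2 fold change (TPM + 1) of each of the 42 genes in gels against TC plates, with its standard error, untreated (left) and with IL-4 (right), from limma on 2 libraries per condition. S phase genes lie between −3.81 and −1.96 without IL-4, mitosis genes other than Cenpa between −2.24 and −0.67, and Cenpa lies above 0.

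S phase genes were thus further below plates than mitosis genes were. Averaged over each class, the S phase genes were 5.55-fold and the mitosis genes 2.99-fold lower in untreated low-collagen gels, and 5.93-fold and 3.11-fold lower in untreated high-collagen gels. The S phase mean change minus the mitosis mean change was −0.89 and −0.93 on the log2 scale, and −0.63 and −0.76 with IL-4 on both sides, beside a standard deviation of 0.0547 between replicates for this difference of class means. Without Cenpa, a choice made after its values were seen, the same differences were −0.77, −0.82, −0.54 and −0.67. In summed TPM, S phase transcripts were 0.885 and 0.877 times the mitosis transcripts on untreated plates, 0.941 and 0.939 on plates with IL-4, and 0.371 to 0.602 times in the 8 gel libraries. Cenpa made up a large part of the mitosis sum in gels, which was 749 to 991 TPM with it and 569 to 726 TPM without it. On plates the sums were 1881 to 2504 TPM and 1748 to 2377 TPM, so Cenpa lowered the gel ratios more than those of plates. These class values are descriptions of chosen genes and carry no p-value. The difference was not seen in the lists of other replication and other mitosis genes that are counted below. Their mean log2 fold changes were −1.79 (replication) and −1.75 (mitosis) in untreated low-collagen gels and −1.80 and −1.81 in untreated high-collagen gels. With IL-4 on both sides the means were −1.48 and −1.52 in low-collagen gels and −1.48 and −1.47 in high-collagen gels.

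The promoters of both classes were read to see which sequences the genes of a class share. The windows were grouped by class and not by the change of their genes. RefSeq windows (build GRCm38.p6), from 250 bases before to 50 after the start, were at hand for 35 of the 42 genes. Those without one were Mcm4, Gins2, Ccna2, Kif20a, Aurkb, Tpx2 and Ccnd1. Searched on both strands were the E2F site (TTTCCCGC, TTTCGCGC, TTTGCCGC or TTTGGCGC), the CHR, the element through which MuvB complexes act (TTTGAA or TTCGAA, the last being its own reverse complement), and the CCAAT box (CCAAT), to which NF-Y binds. Matches on opposite strands may overlap. An E2F word lay in 6 of 14 windows of S phase genes (42.9%) and in 1 of 19 of mitosis genes (5.26%), against 2.32% of 27025 promoters. A CHR word lay in 3 of 14 (21.4%) and 15 of 19 (78.9%), against 19.4% of all, and CCAAT in 9 of 14 (64.3%) and 17 of 19 (89.5%), against 37.9%. Both CHR and CCAAT were present in 15 of 19 mitosis windows and 2 of 14 S phase windows, against 7.7% of all promoters. The windows of E2f1 and Ccne1 held none of the words.

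The stretches printed next show this arrangement in genes of each class. They end before the annotated start and overlap no annotated exon, and capitals mark every E2F, CHR and CCAAT word or its reverse complement. Mcm5 (chr8:75109349-75109508, plus strand) and Mcm6 (chr1:128359706-128359825, minus strand) are S phase genes with paired, overlapping E2F words. Cdk1 (chr10:69352948-69353052, minus strand) is the mitosis gene with an E2F word beside CHR and CCAAT, and Top2a (chr11:99024190-99024384, minus strand), Mki67 (chr7:135716464-135716574, minus strand) and Kif11 (chr19:37376322-37376381, plus strand) are mitosis genes with CHR and CCAAT words alone.
Mcm5: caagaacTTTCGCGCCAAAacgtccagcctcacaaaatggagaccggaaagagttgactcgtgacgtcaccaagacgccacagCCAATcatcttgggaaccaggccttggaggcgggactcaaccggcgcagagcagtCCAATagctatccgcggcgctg
Mcm6: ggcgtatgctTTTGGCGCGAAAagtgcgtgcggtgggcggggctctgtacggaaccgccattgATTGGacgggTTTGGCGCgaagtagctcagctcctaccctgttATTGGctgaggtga
Cdk1: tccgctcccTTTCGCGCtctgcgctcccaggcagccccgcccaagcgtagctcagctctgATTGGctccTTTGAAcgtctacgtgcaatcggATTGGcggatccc
Top2a: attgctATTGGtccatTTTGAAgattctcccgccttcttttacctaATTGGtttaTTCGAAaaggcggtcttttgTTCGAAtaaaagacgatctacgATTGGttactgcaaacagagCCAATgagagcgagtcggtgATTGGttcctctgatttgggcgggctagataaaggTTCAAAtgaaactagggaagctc
Mki67: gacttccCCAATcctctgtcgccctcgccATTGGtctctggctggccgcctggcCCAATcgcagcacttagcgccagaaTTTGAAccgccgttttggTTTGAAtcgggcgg
Kif11: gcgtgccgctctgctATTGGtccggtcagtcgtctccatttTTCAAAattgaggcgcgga
A match is a description of these letters and not a measured binding site. Cenpa, the gene that was higher in gels, held 1 CHR and 2 CCAAT words like most of its class, and Cenpf 1 CHR and 2 CCAAT words.

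**Figure D4:**
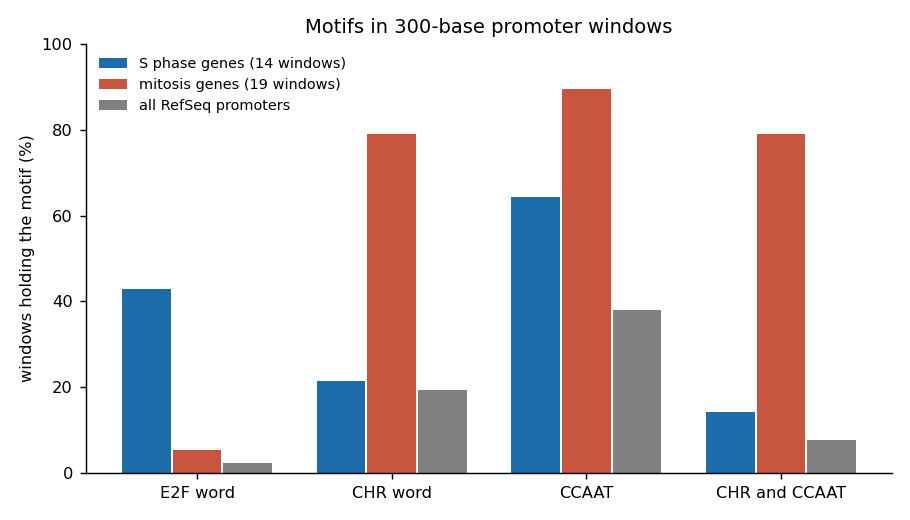
Share of 300-base RefSeq promoter windows that hold an E2F word, a CHR word, CCAAT, or both CHR and CCAAT, for the S phase genes, the mitosis genes and all promoters. E2F words were in 42.9% of S phase windows and 5.26% of mitosis windows, CHR words in 21.4% and 78.9%.

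On TC plates, IL-4 lowered most of the cell cycle genes by a small amount. It lowered 11 of 16 S phase genes, 21 of 23 mitosis genes and 2 of 3 G1/S genes and raised none, where 24% of all genes were called lower and 14.7% higher. Median log2 fold changes were −0.28, −0.43 and −0.34, beside −0.06 over all genes. The S phase genes with the largest falls were Tk1, from 163 and 150.5 to 103 and 90.6 TPM (log2 fold change −0.69, SE 0.10, adjusted p = 0.00059), Uhrf1 (−0.53), Tyms (−0.51) and Mcm7 (−0.43). In the mitosis class they were Cenpf (−0.66), Cenpe (−0.65), Prc1, from 118 and 119.5 to 75.4 and 79.9 TPM (log2 fold change −0.61, SE 0.12, adjusted p = 0.004), and Top2a (−0.54). Ccne1 (−0.48) and Ccnd1 (−0.34) were lower too. For all of these genes both libraries with IL-4 lay below both untreated libraries. The share of all genes with such a split is not given, here or in the comparisons within gels below. Non-overlap of called genes therefore adds no support to the calls. With libraries brought to a common median ratio, 9 S phase, 19 mitosis and 1 G1/S gene were still called lower and none higher, against 20.2% of all genes called lower.

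Of the genes followed in every comparison, Mcm5 (−0.38), Pcna (−0.20), Rrm2 (−0.33), Cdk1 (−0.38) and Mki67 (−0.35) were also lower on plates with IL-4. Mcm2 (−0.11, adjusted p = 0.7), Ccnb1 (−0.17, adjusted p = 0.43) and E2f1 (−0.11, adjusted p = 0.47) did not pass the threshold by limma. The count of 34 members depended on each of the plate libraries. Without either untreated replicate, or without either IL-4 replicate, 19 or 20 members were called, all lower.

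Within gels, most of the S phase genes that were called with IL-4 rose. In high-collagen gels IL-4 raised 6 of 16 S phase genes and lowered 1, where 11.5% of all genes were called higher and 22.8% lower, and the median log2 fold change was 0.22, beside −0.10 over all genes. The genes raised were Uhrf1, Gins2, Cdt1, Pcna, Mcm3 and Fen1. Uhrf1 went from 6.97 and 7.41 to 8.82 and 11.9 TPM (log2 fold change 0.46, SE 0.22, adjusted p = 0.194), and Gins2 from 15.7 and 16.9 to 19.2 and 24.7 TPM (log2 fold change 0.40, SE 0.13, adjusted p = 0.072). For Cdt1 the values were 16.3 and 15.7 TPM untreated and 21.3 and 20.4 TPM with IL-4 (log2 fold change 0.36, SE 0.13, adjusted p = 0.11). Pcna rose from 104 and 99.1 to 132 and 125 TPM (log2 fold change 0.34, SE 0.10, adjusted p = 0.062). Cdc6, from 4.51 and 4.30 to 3.13 and 2.09 TPM, was the gene that fell (log2 fold change −0.60, SE 0.23, adjusted p = 0.13). In each of these genes the untreated and IL-4 libraries did not overlap, which adds no support to the calls. Several calls lay close to the threshold, and without replicate 1 or 2 of either high-collagen condition 1 or 2 S phase genes were called higher, with medians from 0.21 to 0.24.

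Low-collagen gels gave 5 S phase genes raised by IL-4 and none lowered, where 13.2% of all genes were called higher and 40.4% lower, with a median of 0.11 beside −0.19 over all genes. They were Pcna, Fen1, Mcm2, Mcm5 and Rrm2. Pcna rose from 96.05 and 117 to 153 and 137 TPM (log2 fold change 0.45, SE 0.10, adjusted p = 0.014) and Fen1 from 18.6 and 19.6 to 25.8 and 23.03 TPM (log2 fold change 0.34, SE 0.10, adjusted p = 0.034), without overlap. Mcm5 went from 12.04 and 15.05 to 21.5 and 14.6 TPM (log2 fold change 0.37, SE 0.18, adjusted p = 0.155). In Mcm5, Mcm2 (log2 fold change 0.37, SE 0.20, adjusted p = 0.197) and Rrm2 (log2 fold change 0.34, SE 0.19, adjusted p = 0.198) the groups overlapped: replicate 1 with IL-4 was above both untreated libraries and replicate 2 lay between them. Replicate 1 with IL-4 was above its replicate in 15 of 16 S phase genes and 37 of 42 members, and replicate 2 of the untreated low-collagen gels was above its own in 14 of 16 and 34 of 42. Over all genes tested, replicate 1 was above replicate 2 in 7925 of 11865 with IL-4 and in 4248 of 11865 untreated. Without replicate 1 of the IL-4 gels, the median of the S phase genes was −0.06 and 2 were called higher, and without replicate 2 it was 0.28 and 6 were called higher. Without replicate 1 of the untreated gels the median was 0.01, with 2 called higher and 1 lower. Pcna and Fen1 were called higher in both kinds of gel.

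No mitosis gene was called higher with IL-4 in either gel. In low-collagen gels 10 of 23 were called lower and in high-collagen gels 5 of 23, shares near the 40.4% and 22.8% of all genes. Without replicate 2 of the low-collagen gels the count of 10 became 4 (IL-4) or 6 (untreated), and without any 1 of the 4 high-collagen libraries the count of 5 became 2 to 4. The medians were −0.23 and −0.12, close to those over all genes. Among the called genes, the largest falls in low-collagen gels were those of Cenpa, from 302 and 265 to 174 and 179.9 TPM (log2 fold change −0.67, SE 0.08, adjusted p = 0.00081), Cenpe (−0.67), Cenpf (−0.46) and Ube2c (−0.39). The called genes with the largest falls in high-collagen gels were Kif23 (−0.38), Ube2c (−0.35), Top2a (−0.33) and Cenpa, from 233 and 219 to 174 and 191 TPM (log2 fold change −0.30, SE 0.08, adjusted p = 0.044). Bub1b (−0.35) and Cenpe (−0.34) had changes of that size in high-collagen gels but were not called. Cenpa and Ube2c fell in both gels without overlap between the groups. The G1/S genes gave 1 call, for Ccnd1 in high-collagen gels, from 44.95 and 36.6 to 28.8 and 28.2 TPM (log2 fold change −0.49, SE 0.19, adjusted p = 0.13).

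The scale of the libraries bears on these directions, since IL-4 shifted the median of all genes by −0.19 and −0.10 in the gels. With libraries brought to a common median ratio, 10 of 16 S phase genes were called higher in low-collagen gels and none lower (23.2% and 21.2% of all genes, 44.4% in either direction), and 2 of 23 mitosis genes higher and 2 lower. In high-collagen gels the rescaled counts were 9 and 1 for S phase genes and 1 and 1 for mitosis genes (17.4% and 14.3% of all genes, 31.7% in either direction). The S phase calls were thus mostly higher under both scalings, while the mitosis calls were lower without rescaling and evenly split with it. The S phase mean change minus the mitosis mean change was 0.35 in low-collagen gels, 0.27 in high-collagen gels and 0.09 on plates, beside the 0.0547 between replicates. In the lists of other replication and other mitosis genes, the split in gels was smaller. Mean changes there were 0.07 (replication) and −0.15 (mitosis) in low-collagen gels, 0.08 and −0.05 in high-collagen gels, and −0.23 and −0.38 on plates. In gels the medians were −0.04 and −0.13 (low-collagen) and 0.03 and −0.0002 (high-collagen). The replication means include Dut, described below, at 3.12 and 2.98 in gels.

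**Figure D5:**
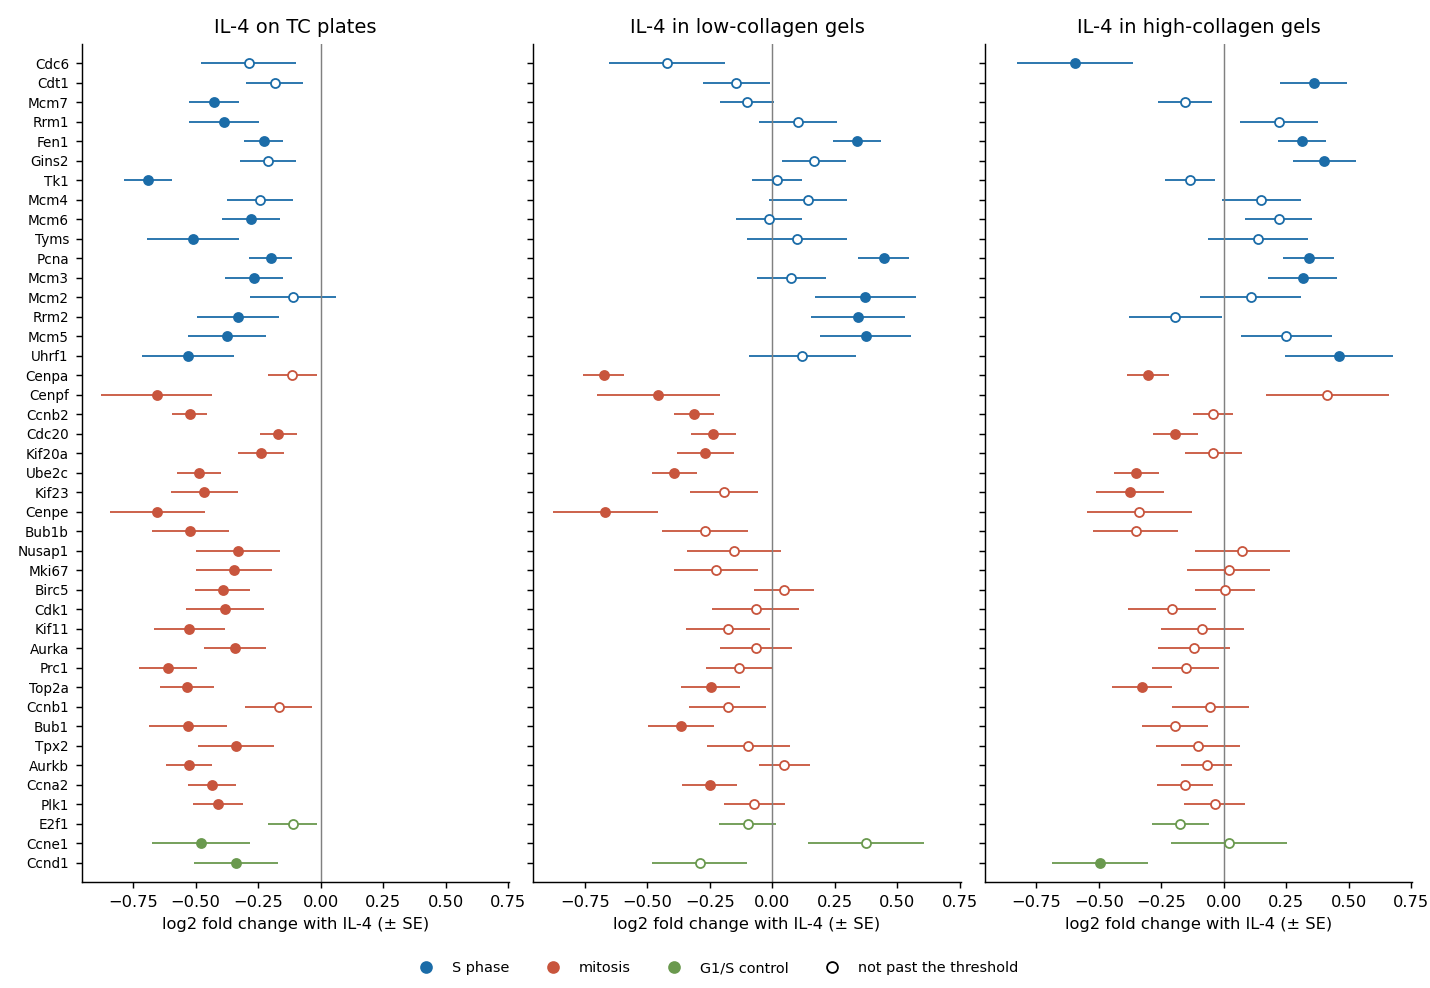
Log2 fold change (TPM + 1) with IL-4 of each of the 42 genes, with its standard error, on TC plates, in low-collagen gels and in high-collagen gels; filled points passed an adjusted p of 0.2 by limma and open points did not. On plates all 42 points lie below 0, and in gels the S phase genes (blue) lie mostly above 0 and the mitosis genes (red) mostly below, the latter by about as much as the median of all genes.

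Several of the genes followed in every comparison did not pass the threshold with IL-4 in gels. In low- and high-collagen gels the log2 fold changes were 0.10 and 0.14 for Tyms, −0.18 and −0.05 for Ccnb1, −0.07 and −0.21 for Cdk1 and −0.23 and 0.02 for Mki67. They were −0.10 and −0.17 for E2f1 and 0.38 and 0.02 for Ccne1. Ccnd1 in low-collagen gels (−0.29) and Mcm2, Mcm5 and Rrm2 in high-collagen gels (0.11, 0.25 and −0.19) were also not called, and Top2a was called lower in low-collagen gels (−0.25).

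Whether the IL-4 response itself differed between gels and plates was tested as a difference of differences. Higher here means a more positive signed change, so a gene that fell on plates and fell less in gels also counts. Mean Prc1 fell from 119 to 77.7 TPM on plates and from 30.9 to 28.2 TPM in low-collagen gels. Mean Pcna fell from 580 to 505 TPM on plates and rose from 106 to 145 TPM in low-collagen gels. The response was higher in low-collagen gels than on plates for 10 of 16 S phase genes, 4 of 23 mitosis genes and 1 of 3 G1/S genes, and lower for 1 mitosis gene, where 9.3% of all genes were called higher and 18.7% lower. For high-collagen gels it was higher for 11 of 16 S phase genes and 6 of 23 mitosis genes and lower for none, where 8.66% and 8.61% of all genes were called. The called S phase genes with the largest differences in low-collagen gels were Mcm5 (by 0.75, SE 0.22, adjusted p = 0.062), Tk1 (0.71), Rrm2 (0.67) and Uhrf1 (0.65), with Pcna at 0.65. In high-collagen gels they were Uhrf1 (by 0.99, SE 0.26, adjusted p = 0.053), Tyms (0.65), Mcm5 (0.62) and Gins2 (0.61), with Pcna at 0.54. Both tests use the same plate libraries. Of the 40 other replication genes counted below, 13 were called higher and 1 lower for low-collagen gels, and 5 and 0 for high-collagen gels. Of the 55 other mitosis genes, 13 and 8 were called higher and none lower. For high-collagen gels the share of other replication genes called higher was thus closer to that of all genes than the share of S phase members. The count of 16 in low-collagen gels was 8 to 10 without any 1 of the 4 plate libraries, 6 without replicate 1 of the IL-4 gels and 9 without replicate 1 of the untreated gels. The count of 17 in high-collagen gels was 8 to 11 without any 1 of the plate libraries and 11 without replicate 1 of the untreated gels.

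Among mitosis genes the response was higher in low-collagen gels for Aurkb (0.57), Prc1 (0.48), Birc5 (0.44) and Plk1 (0.34) and lower for Cenpa (by −0.56, SE 0.14, adjusted p = 0.032). In high-collagen gels it was higher for Cenpf (1.07), Ccnb2 (0.48), Aurkb (0.46) and Prc1 (0.46), beside Birc5 and Plk1. Ccne1 was the G1/S gene called, in low-collagen gels (by 0.85, SE 0.28, adjusted p = 0.084). In high-collagen gels Ccne1 (0.50) and Rrm2 (0.14) were not called. Not called were Ccnd1 (0.05 and −0.15), E2f1 (0.01 and −0.06), Ccnb1 (−0.01 and 0.11), Cdk1 (0.32 and 0.17), Mki67 (0.12 and 0.37), Top2a (0.29 and 0.21) and Mcm2 (0.48 and 0.22), in low- and high-collagen gels.

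Collagen density moved few of these genes. Between untreated high- and low-collagen gels 3 of 42 members were called, where limma called 8.02% of all genes (3.23% higher, 4.79% lower), so the share was near the background. Without either untreated high-collagen replicate none was called, and without replicate 1 of the untreated low-collagen gels 1 was. Aurkb was higher in high-collagen gels (28.2 and 27.3 against 19.6 and 23.04 TPM, log2 fold change 0.37, SE 0.10, adjusted p = 0.147), and Ccnb2 (log2 fold change −0.41, SE 0.08, adjusted p = 0.071) and Cenpa (log2 fold change −0.32, SE 0.08, adjusted p = 0.13) were lower. With IL-4, 4 of 42 were called, against 21.1% of all genes (14.1% higher, 6.99% lower). None was called without either replicate of the high-collagen gels with IL-4 or without replicate 2 of the low-collagen gels with IL-4, and 2 were without either untreated high-collagen replicate. Cdt1 (21.3 and 20.4 against 15.8 and 13.2 TPM, log2 fold change 0.50, SE 0.13, adjusted p = 0.079), Cenpf (log2 fold change 0.68, SE 0.25, adjusted p = 0.155) and Aurkb (log2 fold change 0.25, SE 0.10, adjusted p = 0.197) were higher in high-collagen gels and Fen1 lower (log2 fold change −0.26, SE 0.10, adjusted p = 0.163). For these 6 genes the libraries of both gels did not overlap in the comparison that called them. No share of all genes with such a split is given beside this. On the common median ratio, 1 member was called higher and 1 lower without IL-4 (3.65% and 3.9% of all genes, 7.55% in either direction), and 2 higher and 6 lower with IL-4 (10.5% and 11.1%, 21.5% in either direction), so the split between higher and lower calls with IL-4 depended on the scale.

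None of the 12 genes followed in every comparison was called for collagen density. Without and with IL-4 the log2 fold changes, high over low collagen, were 0.05 and 0.29 for Mki67, −0.02 and −0.10 for Top2a, −0.19 and −0.07 for Ccnb1 and 0.20 and 0.06 for Cdk1. For the S phase genes they were 0.03 and −0.24 (Mcm2), −0.08 and −0.20 (Mcm5), −0.06 and −0.17 (Pcna), 0.30 and −0.23 (Rrm2) and −0.34 and −0.30 (Tyms). For the G1/S genes they were −0.10 and −0.18 (E2f1), 0.23 and −0.13 (Ccne1) and 0.36 and 0.15 (Ccnd1). For the change in the IL-4 response between both gels, limma called 0 of 42 members and 0.363% of all genes. At an unadjusted p under 0.05 by limma there were 4 of 42 members and 1171 of 11852 genes, so the share of members was near the background. The values of the members ranged from −0.54 (Rrm2) to 0.87 (Cenpf).

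Genes of the same processes outside the 42 were counted in the same way. Of 40 other replication genes all 40 were lower in both untreated gels than on plates, with medians of −1.90 and −1.91, and of 55 other mitosis genes 54 were lower in each, with medians of −1.77 and −1.85, where 44.3% and 45.5% of all genes were called lower. The largest falls in low-collagen gels were those of Ccne2, cyclin E2 (−3.03), Clspn, a replication checkpoint mediator (−2.93), and Hells, a chromatin remodeller (−2.78). Among mitosis genes they were those of Mybl2, which encodes B-Myb (−2.97), Spc25 (−2.26) and Foxm1 (−2.25). IL-4 on plates lowered 19 and raised 2 of the 40 replication genes, and lowered 38 of the 55 mitosis genes and raised none, where 24% of all genes were called lower and 14.7% higher. In low-collagen gels it raised 6 and lowered 5 of 39 replication genes tested and raised 2 and lowered 14 of 55 mitosis genes, where 13.2% of all genes were called higher and 40.4% lower, so that fewer of both lists were lower than the background share and the share of replication genes raised was near it. In high-collagen gels the counts were 5 raised and 3 lowered of 39, and 0 and 4 of 55, where 11.5% were called higher and 22.8% lower.

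Dut, the enzyme that removes dUTP before DNA is copied, had a larger IL-4 response than any member. With IL-4 its mean rose from 54.9 to 193.6 TPM on plates, from 13.5 to 125.1 TPM in low-collagen gels and from 11.7 to 99.0 TPM in high-collagen gels. The log2 fold changes were 1.81, 3.12 and 2.98, each called by limma, and the response was larger in low-collagen gels (by 1.31, adjusted p = 0.00024) and in high-collagen gels (by 1.17, adjusted p = 0.00062) than on plates.

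Of 20 genes of the G1 cyclins, kinases, E2F and pocket proteins, 17 were lower and 3 higher in untreated low-collagen gels than on plates, and 17 and 2 in high-collagen gels, against 44.3% and 45.5% of all genes called lower and 28.5% and 28% called higher. E2f8 (−2.94), E2f7 (−2.44) and Rbl1, the pocket protein p107 (−2.22), fell most in low-collagen gels. The pocket proteins Rbl2 (0.43) and Rb1 (0.37) were higher there. Myc encodes a transcription factor that drives growth. Its mean was 49.7 TPM on untreated plates, and 11.7 and 7.89 TPM in untreated low- and high-collagen gels. The log2 fold change in high-collagen gels was −2.51. With IL-4 Myc rose by 0.68 on plates, 1.82 in low-collagen gels and 1.70 in high-collagen gels. Of 22 inhibitors of the cycle and p53 targets, 11 were higher and 8 lower in untreated low-collagen gels and 9 higher and 9 lower in high-collagen gels. Against the same background shares, the counts of lower genes were near or below it and those of higher genes above it. Sesn1, Btg1 and Btg2, which slow growth or division, were higher by 1.92, 1.77 and 1.75 in low-collagen gels, and Cdkn1b, the kinase inhibitor p27, by 1.49 in high-collagen gels. Cdkn2a (−1.66) and Gadd45g (−1.37) were lower in low-collagen gels. IL-4 lowered 13 and raised 3 of these 22 genes in low-collagen gels, where 40.4% of all genes were called lower and 13.2% higher, so the share raised was near the background. Sesn1 was at −1.47 and Btg2 at −1.45.

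Several members have close copies in the genome, so that reads may be divided between them. The share of 31-base words also found in transcripts of another gene was 27.7% for Ccnb1, 26.8% for Mcm7, 25.5% for Cdc20, 24.2% for Uhrf1, 23.3% for Pcna, 14.8% for Plk1 and 11.98% for Rrm2, for example the pseudogenes Ccnb1-ps and Pcna-ps2. It was under 10% for the other 35 members. The levels of these 7 genes are therefore less certain than those of the others.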

How the data were processed

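RNA-seq was done on 12 libraries of BMDMs, 2 in each of 6 conditions taken from the labels. Per the labels and the methods, the authors aligned paired-end reads from stranded mRNA libraries with kallisto 0.46.1 to mouse cDNA (GRCm38) and deposited TPM per gene. How transcripts were joined to genes is not given in the sources used here. Repeated lines (129) were dropped, and Kif11, listed under 2 identifiers with equal values, was counted once. Differences were tested with limma 3.58.1 (R 4.3.3) on log2(TPM + 1), with 1 mean per condition, a variance trend on the mean and p-values adjusted by Benjamini-Hochberg over all genes with a mean of at least 1 TPM, and called at an adjusted p under 0.2. The 8 gel libraries were fitted together (11852 genes) and comparisons with plates used all 12 (11865 genes). The fit was tested on simulated data. Members and lists were chosen with earlier results of these data known, with no p-value for a list. For each comparison up to 4 called members in each direction and class are named, and 12 genes always. TPM give no depth, so no counting interval can be given. As alternatives, a pseudocount of 0.1 was tried, and so were fits with no filter, a threshold of 0.05, median-ratio rescaling, other libraries in the fit, a replicate block, other class members and leaving out each library in turn.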

Additional observations from a re-analysis of the deposited data

Results flagged for a closer look

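The response to IL-4 differed between gels and TC plates in 16 of the 42 members for low-collagen gels and in 17 for high-collagen gels, by limma's test of the difference itself (adjusted p under 0.2), where 28% and 17.3% of all genes were called. All but Cenpa in low-collagen gels had a more positive signed change in the gel, which for some was a smaller fall. Of the called members, 10 and 11 were S phase genes. Both counts use the same plate libraries and fell when single libraries were left out, as given with the results.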

How the results depend on the processing

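A difference between gels and plates was called for 41 or 42 of 42 members in all 4 comparisons, whichever library was left out. With all libraries kept, 72.8% to 75.1% of all genes were called in these comparisons. Other counts of called members depended more on the libraries. Leaving out single libraries gave 10 to 15 for IL-4 in low-collagen gels, 4 to 14 in high-collagen gels (4 to 6 without any 1 of the 4 high-collagen libraries) and 19 to 34 on plates. The range was 0 to 2 for untreated collagen density, 0 to 4 for collagen density with IL-4, 0 for the change of the IL-4 response with collagen, 6 to 20 for the difference of the IL-4 response between low-collagen gels and plates and 8 to 17 for that between high-collagen gels and plates.

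At an adjusted p under 0.05, 6 members were called for IL-4 in low-collagen gels, 2 in high-collagen gels, 15 on plates, 0 for either collagen comparison, and 5 and 5 for the difference in IL-4 response of low- and high-collagen gels from plates. Without a filter on low values the counts were 7 for IL-4 in high-collagen gels, 1 and 1 for collagen density without and with IL-4, and 10 and 10 for both differences of response. With all 12 libraries fitted, untreated collagen density gave 7. On a common median ratio, collagen density with IL-4 gave 8 and the difference in response between low-collagen gels and plates 26, where 21.5% and 24.7% of all genes were called. For the other settings, and with single libraries left out, the share of all genes called is not given. Those counts therefore cannot be set against a background. The causes of the changed counts were not tested.

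Replicate numbers did not pair the libraries: over 15 pairs of conditions the correlation of same-numbered deviations was −0.12 to 0.11, and 1 was over 0.1. With the replicate number as a block, 2 members were called for collagen density with IL-4, and the other counts stayed within 1.5 times.

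The S phase minus mitosis difference for high-collagen gels against plates, untreated, was −0.87 with E2f1 and Ccne1 counted as S phase genes. Without Cenpa, chosen after seeing the data, it was −0.77 and −0.82 in untreated low- and high-collagen gels and −0.54 and −0.67 with IL-4. Leaving out single libraries, it was 0.21 to 0.32 for IL-4 in high-collagen gels, −0.18 to −0.070 for collagen density with IL-4 and −0.81 to −0.70 for high-collagen gels against plates with IL-4. Of the values for single named members under the alternatives, 1986 kept their direction and side of the threshold, 268 lost the call and 0 reversed. The stricter threshold, no filter, other libraries in the fit and the replicate block leave the fold changes as they were. So does leaving out a library outside the comparison. Such settings cannot reverse a direction, so the 0 was partly fixed in advance. These counts are therefore no measure of how robust the directions are.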
